A study of Mus musculus with 8 samples.

Results

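The 7 genes described here belong to the BCL2 family, which sets the threshold for mitochondrial apoptosis: Bcl2, Bcl2l1 (BCL-XL), Mcl1, Bcl2l11 (BIM), Bid, Bbc3 (PUMA) and Pmaip1 (NOXA). They were followed through H3K27ac HiChIP, which captures DNA contacts of chromatin that carries acetylated lysine 27 of histone H3, a mark of active promoters and enhancers. A loop was assigned to a gene when one of its 2 bins of 5 kb held the canonical start site of the gene in the GENCODE mouse annotation (GRCm39). All 7 genes, of 21751 protein-coding genes with a canonical start site, had such a promoter loop in each of the 4 deposited loop lists, which was true of 29.1% of all those genes. Together they had 286 promoter loops over the 4 lists, of 411922 listed loops in all. These were 114 distinct pairs of a gene and a partner bin, the bin at the other end of the loop.

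The cells were HPC-7, a mouse haematopoietic progenitor line grown with stem cell factor, which was stably transduced with a retroviral construct for one isoform of the transcription factor CEBPA. The groups p42 and p30 carried the full-length isoform and the shorter isoform that lacks part of the N-terminal transactivation region. In both groups the isoform was fused to the ERT2 domain, so that 4-hydroxytamoxifen, given to all groups, moves it into the nucleus, and both groups were sorted for GFP. Cells were untreated (UT) or were given LPS, the ligand of TLR4, at 100 ng/mL for 2 h. The isoform came from a transgene in a line with very low CEBPA of its own, which limits it as a model of either isoform at its native level. Each of the 4 groups had 2 replicates, 8 libraries in all, and the authors pooled the replicates into 1 list per group. No spread between replicates can therefore be given, and every difference below compares those pooled libraries, not the conditions. In a cell population, fewer cells with a contact and fewer contacts per cell cannot be told apart.

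In this family the anti-apoptotic proteins BCL2, BCL-XL and MCL1 hold the pore-forming effectors BAX and BAK in check at the outer mitochondrial membrane. The BH3-only proteins BIM, BID, PUMA and NOXA bind the anti-apoptotic members, and some also activate the effectors, so that cytochrome c is released and caspases are switched on. In haematopoietic cells these genes are known for survival control, MCL1 in stem and progenitor cells and BIM in myeloid and lymphoid cells among them, and several BH3-only genes are targets of p53.

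The start-site bins and the bins they contacted were read in the reference genome. The 250 bases before the canonical start site are shown for Bcl2 and Mcl1, 2 anti-apoptotic genes for which this window overlapped no annotated exon. Capitals mark matches to the motifs searched on both strands: C/EBP (TTGCNNAA), the C/EBP-ATF composite (TGATGCAA), AP-1 (TGANTCA), CRE (TGACGTCA) and NF-kB (GGG, 2 bases of any kind, then TTTCC).
Bcl2 promoter, chr1:106642061-106642310, minus strand: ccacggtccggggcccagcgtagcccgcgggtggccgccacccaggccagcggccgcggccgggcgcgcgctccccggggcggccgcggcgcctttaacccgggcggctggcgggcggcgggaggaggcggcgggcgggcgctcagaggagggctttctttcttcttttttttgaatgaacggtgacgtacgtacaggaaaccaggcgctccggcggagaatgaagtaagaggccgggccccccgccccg
Mcl1 promoter, chr3:95565776-95566025, plus strand: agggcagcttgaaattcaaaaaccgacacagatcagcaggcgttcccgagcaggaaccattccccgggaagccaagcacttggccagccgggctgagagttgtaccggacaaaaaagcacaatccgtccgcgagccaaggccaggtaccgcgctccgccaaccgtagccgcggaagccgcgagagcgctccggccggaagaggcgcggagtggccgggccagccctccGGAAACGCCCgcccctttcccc

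The Bcl2 window had a G+C content of 74.0% and held none of the 5 motifs. The Mcl1 window had 65.6% G+C and held 1 NF-kB match on the minus strand, and such a match was found in 1.47% of the 21751 promoter windows of this length. Over all 7 genes 1 promoter window, that of Bid, held the C/EBP letters, which 9.34% of all windows held. The C/EBP-ATF composite, AP-1 and CRE letters were in no window of the 7 genes and in 0.887%, 6.17% and 1.70% of all windows. A match is a description of letters and does not show binding.

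Partner bins are shown by the C/EBP match nearest to the centre of the bin that overlapped no exon, in a window of 101 bases. Each was chosen as the partner with the most contacts among a gene's loops in all 4 lists or as the one whose coverage differed most between p42 UT and p30 UT. All are given on the plus strand.
Bcl2, 200 kb downstream, chr1:106443996-106444096: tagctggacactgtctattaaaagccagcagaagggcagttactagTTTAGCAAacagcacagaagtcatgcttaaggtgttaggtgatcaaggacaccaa
Bcl2l1, 135 kb downstream, chr2:152539712-152539812: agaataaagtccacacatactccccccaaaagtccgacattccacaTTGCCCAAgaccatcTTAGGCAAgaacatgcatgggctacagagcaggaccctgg
Bcl2l1, 90 kb downstream, chr2:152583344-152583444: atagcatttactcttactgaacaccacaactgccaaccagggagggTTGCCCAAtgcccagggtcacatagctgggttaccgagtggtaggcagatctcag
Mcl1, 10 kb upstream, chr3:95559371-95559471: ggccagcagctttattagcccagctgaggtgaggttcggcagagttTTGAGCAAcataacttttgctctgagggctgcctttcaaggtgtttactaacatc
Bcl2l11, 270 kb downstream, chr2:128238979-128239079: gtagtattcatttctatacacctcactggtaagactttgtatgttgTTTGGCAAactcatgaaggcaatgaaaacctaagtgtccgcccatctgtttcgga
Bid, 10 kb downstream, chr6:120881953-120882053: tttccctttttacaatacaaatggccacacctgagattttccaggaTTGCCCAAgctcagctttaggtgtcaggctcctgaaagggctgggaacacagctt

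The C/EBP letters were in 95 of the 114 partner bins (83.3%) and in 85.8% of all 64985 peak bins, which are bins with an H3K27ac peak in a list. The AP-1 letters were in 83.3% of the partner bins and 77.4% of all peak bins, so that a match in a bin of 5 kb was common everywhere. Of the partners with the most contacts, the bin 10 kb upstream of Bbc3 held none of the 5 motifs.

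The number of promoter loops differed widely among the 7 genes. Bcl2l1 had the most, with 27 in p30 UT and 27 with LPS, and 28 in p42 UT and 25 with LPS, which placed it above 98.9% or more of the genes with a promoter loop in each list. Bcl2 had 10 loops in p30 UT and 6 with LPS, and 17 in p42 UT and 14 with LPS. Mcl1 had 8, 18, 17 and 9 loops in the same order, which is kept wherever 4 values are given without their lists. Among the BH3-only genes, Bbc3 had 8, 8, 10 and 3 loops, Pmaip1 4, 9, 5 and 4, and Bid 3, 5, 9 and 4. Bcl2l11 had the fewest, with 1, 2, 4 and 1. These numbers are for the canonical start site. With the start sites of all coding transcripts, Bbc3 had 14, 19, 21 and 9 loops and Bid 5, 6, 14 and 6, while the other 5 genes kept their numbers.

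**Figure D1:**
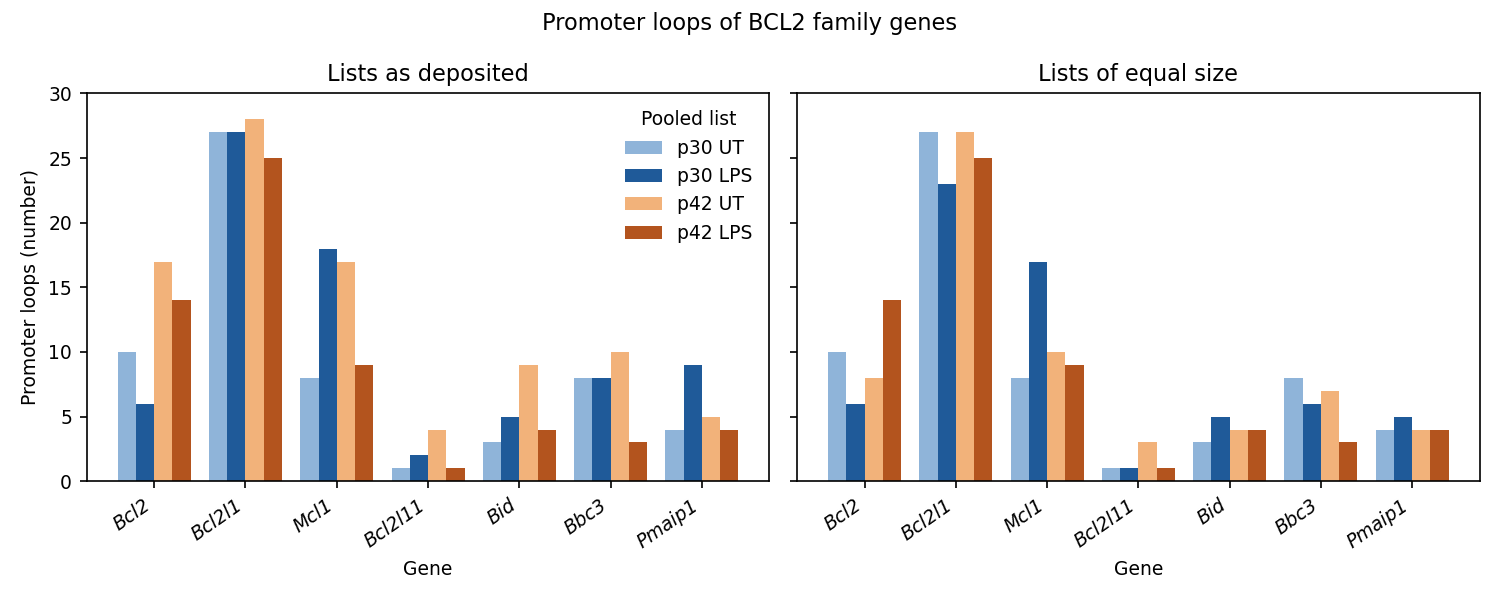
Number of promoter loops (y axis) of each gene (x axis) in the 4 pooled lists, 1 bar per list, with the lists as deposited on the left and lists of equal size on the right. Bcl2l1 stayed between 23 and 28 loops in both panels, whereas the count of 17 for Bcl2 in p42 UT became 8 in lists of equal size.

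The lists themselves differed in length, with 80489 loops in p30 UT and 94609 with LPS, and 158233 in p42 UT and 78591 with LPS. A pair of bins that is not listed has unknown contacts, not none. All 7 genes had more loops in p42 UT than in p30 UT, as did 81.9% of all genes with a promoter loop in either list, where 8.25% had fewer. With LPS, p42 exceeded p30 in the loops of Bcl2 and fell short of it in the other 6, beside 23.6% and 58.7% of all genes. In p30, Mcl1, Pmaip1, Bid and Bcl2l11 had more loops after LPS than before and Bcl2 had fewer, beside 53.1% and 27.6% of all genes. In p42, all 7 had fewer loops after LPS, as did 87.3% of all genes, where 4.51% had more. The shares over all genes go with the lengths of the lists, and the members' counts are not read apart from them. Past 1.5-fold on the scale of loops + 1, 4 members were higher in p42 UT than in p30 UT and none was lower, beside 66.7% and 6.14% of all genes. With LPS, p42 had 1 higher and 4 lower than p30, beside 15.6% and 41.3%. LPS against UT had 4 higher and 1 lower in p30, beside 34.6% and 18.2%, and 0 higher and 4 lower in p42, beside 3.31% and 73.8%.

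Each list was therefore also limited to its 78591 loops of smallest q-value, the length of the shortest list. In p42 UT against p30 UT, 3 members (Mcl1, Bcl2l11 and Bid) then had more loops and 2 (Bcl2 and Bbc3) fewer, beside 41.8% and 37.7% of all genes. In p42 LPS against p30 LPS, Bcl2 and Bcl2l1 had more and 4 had fewer, beside 33.7% and 46.7%. In p30, Mcl1, Bid and Pmaip1 had more loops after LPS and Bcl2, Bcl2l1 and Bbc3 fewer, beside 42.3% and 36.8%. In p42, Bcl2 had more after LPS and 4 members had fewer, beside 31.8% and 46.4%. Mcl1 had 8 loops in p30 UT and 17 with LPS, and 10 in p42 UT and 9 with LPS at equal list size. Bcl2 had 10, 6, 8 and 14 loops at equal size, so that p42 LPS then held the most.

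The labelled cell type was checked against marker genes. All 10 markers of haematopoietic stem and progenitor cells (Kit, Cd34, Gata2, Tal1, Lmo2, Lyl1, Runx1, Fli1, Erg and Spi1) had promoter loops in all 4 lists, with 1 to 26 loops. The 3 T cell and 3 fibroblast markers had none in any list. Of the B cell markers, Cd79a had 3, 2, 4 and 2 loops and Ms4a1 had none. Of the epithelial and hepatocyte markers, Krt8 and Apoa1 had 1 loop each in p42 UT. The lists rest on 14503330 to 18999991 modelled contacts each.

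Bcl2 encodes the founding anti-apoptotic protein of the family. The gene lies on chr1:106465908-106642060 on the minus strand, with its start site in the bin chr1:106640001-106645000. All 22 of its partner bins lay downstream, 15 over the gene itself and 7 beyond its 3′ end, at 10 to 290 kb. Of its loops in all 4 lists, the one with the most contacts reached 200 kb, to a bin 20.9 kb beyond the 3′ end that held no annotated exon. Its sequence around a C/EBP match is printed above. It had 27 contacts in p30 UT and 23 with LPS, and 42 in p42 UT and 34 with LPS, or 18.37, 16.54, 25.01 and 21.88 times the number that the caller expected from distance and coverage. The share of p42 was 60.9% in UT, against 57.5% over all loops, and 59.6% with LPS, against 48.6%, and neither passed the exact binomial test (adjusted p = 0.94 and 0.75).

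The other loops of Bcl2 in all 4 lists reached 205, 170, 165 and 85 kb downstream. At 205 kb, next to the strongest bin, there were 15 contacts in p30 UT and 16 with LPS, and 29 in p42 UT and 15 with LPS. The bin at 170 kb, over exon sequence of Bcl2 and the start of the microRNA gene Mir3473f, had 11, 16, 32 and 11 contacts, so that p42 UT stood apart. The other 3 lists lay between 11 and 16 there, and the share of p42 UT against p30 UT did not pass the test (exact binomial test, adjusted p = 0.30, and 0.035 with a null share from the modelled contacts of the lists). Contacts at 165 kb were even, with 15, 13, 15 and 13, and at 85 kb they were 16, 13, 20 and 13. Loops to bins at 175 kb (16 contacts in p42 UT, 19 in p42 LPS) and 285 kb (8 and 8) were listed in both p42 lists and in neither p30 list. Loops at 190 kb (9 contacts in p30 UT, 13 in p42 UT) and 160 kb (10 and 10) were listed in both UT lists and neither LPS list.

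Coverage of the partner bins of Bcl2, the number of reads per bin, was also compared. The bin at 200 kb had 3492 reads in p30 UT and 2567 with LPS, and 8290 in p42 UT and 3897 with LPS. After centring on the median of all peak bins, the log2 ratio of p42 to p30 was 1.01 in UT and 0.81 with LPS. The neighbouring bin at 195 kb had log2 ratios of 0.93 and 0.72. In UT, 4 of the 13 partner bins with a peak in both lists were higher in p42 by 1.5-fold or more and none was lower, beside 5.49% and 2.65% of all peak bins. With LPS 2 of 10 were higher, beside 3.87%. Some of these bins are neighbours and their values are not independent. Partner bins entered through a listed loop, and p42 UT was the longest list. The bin at 35 kb, higher in UT, was listed in p42 UT alone.

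Bcl2l1 encodes BCL-XL, the anti-apoptotic protein that keeps platelets and erythroid precursors alive. It lies on chr2:152622582-152673655, minus strand, with its start-site bin at chr2:152670001-152675000, which also holds the start site of the predicted gene Gm74855. All 32 of its partner bins lay downstream, 9 over the gene and 23 beyond its 3′ end, and 22 of the 32 (68.8%) were in all 4 lists. They formed a nearly unbroken row from 10 to 160 kb that crosses Cox4i2, a cytochrome c oxidase subunit, Id1, an inhibitor of helix-loop-helix factors, and H13, the signal peptide peptidase.

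The strongest contact of Bcl2l1 was with a bin 135 kb downstream, which held exons of H13. It had 114 contacts in p30 UT and 80 with LPS, and 132 in p42 UT and 89 with LPS, at 54.29, 42.58, 57.66 and 44.31 times the expected number, the highest such ratios of all promoter loops of the 7 genes. With LPS it held 41.2% of the contacts in p30, against 49.7% over all loops, and 40.3% in p42, against 40.8% (exact binomial test, adjusted p = 0.47 and 1.00). Its neighbour at 140 kb had 54, 43, 63 and 32 contacts. Loops of Bcl2l1 also reached bins with the start sites of H13 (160 kb, 29, 36, 39 and 32 contacts), Mcts2 (145 kb, 26, 22, 23 and 18), Id1 (95 kb, 25, 25, 45 and 14) and Cox4i2 (75 kb, 17, 15, 24 and 17).

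Of the loops of Bcl2l1 with the most contacts in all 4 lists, those at 40, 65 and 90 kb are given by list. At 90 kb, next to the bin with the start site of Id1, there were 40 contacts in p30 UT and 49 with LPS, and 94 in p42 UT and 36 with LPS. At 65 kb, within Cox4i2, there were 43, 33, 92 and 28. At 40 kb, over Bcl2l1 itself with no exon in the bin, there were 54, 37, 108 and 45. In each of these bins p42 UT had the most contacts, and none of the other 3 lists passed 54. The loops at 90 and 40 kb did not pass the exact binomial test, with adjusted p of 0.084 and 0.26 in p42 UT against p30 UT and 0.17 and 0.22 in p42 LPS against p42 UT. The loop at 65 kb passed the test in p42 LPS against p42 UT: 23.3% of its contacts were from LPS (95% Wilson interval 16.7 to 31.7), where 40.8% was the share over all tested loops (exact binomial test, adjusted p = 0.023). Its adjusted p lay between 0.00021 and 0.047 in the 5 other settings tried. The same loop in p42 UT against p30 UT had 68.1% of its contacts from p42 (59.9 to 75.4) against 57.5% over all loops, with an adjusted p of 0.21 in the exact binomial test. With null shares from modelled contacts and from expected counts its adjusted p was 0.0026 and 0.045. The loop at 90 kb passed under these same settings, with 0.00051 and 0.048 in p42 UT against p30 UT and 0.0044 and 0.036 in p42 LPS against p42 UT. That at 40 kb passed with modelled contacts alone, with 0.0028 and 0.0056 in these comparisons.

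The bin at 90 kb also stood out in coverage, with 8774 reads in p30 UT and 9094 with LPS, and 18999 in p42 UT and 9096 with LPS. Its centred log2 ratio was 0.87 in p42 UT against p30 UT and 0.21 under LPS. The neighbouring bin with the Id1 start site had a ratio of 0.70 in UT, and these 2 were the only ones of 28 partner bins with a peak in both lists to pass 1.5-fold, a share near the 5.49% of all peak bins. One loop, at 100 kb over an exon of Id1, was in both p30 lists alone (11 contacts in UT, 14 in LPS). Loops at 10 kb (66 contacts in p30 UT, 91 in p42 UT) and 215 kb (9 and 16) were in both UT lists alone.

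Mcl1 encodes a short-lived anti-apoptotic protein. It is a compact gene on chr3:95566026-95570487, plus strand, with its start-site bin at chr3:95565001-95570000. Of its 22 partner bins, 14 lay upstream and 8 beyond the 3′ end. Only 5 were in all 4 lists, and these lay within 35 kb. The one of these with the most contacts was 10 kb downstream, with 107 contacts in p30 UT and 93 with LPS, and 138 in p42 UT and 86 with LPS, or 2.27, 1.94, 2.31 and 1.70 times the expected number. At 15 kb downstream, over Adamtsl4, there were 69, 63, 88 and 46 contacts.

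On the upstream side the loops of Mcl1 ran into Ensa, which encodes an inhibitor of the phosphatase PP2A. The bin at 25 kb had 35 contacts in p30 UT and 55 with LPS, and 62 in p42 UT and 47 with LPS. At 30 kb there were 35, 28, 48 and 38, and at 35 kb, the bin with the start site of Ensa, 22, 23, 25 and 24. None of these loops passed the test in any of the 4 comparisons. The gain in number from 8 loops in p30 UT to 18 in p30 LPS came from pairs that were not listed in p30 UT. These included bins at 10 kb (115 contacts in p30 LPS), 15 kb (53) and 20 kb (36) upstream, and the start site bins of Golph3l (70 kb, 12) and of Ctsk, cathepsin K (160 kb, 9), all of which were also listed in p42 UT. They were singled out after their values were seen. The bin with the start site of Ctss, cathepsin S (135 kb upstream), had 11, 11 and 13 contacts in p30 UT, p30 LPS and p42 UT. One loop, 140 kb upstream, was in both UT lists alone, with 13 contacts in each.

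Coverage of the bin 10 kb upstream of Mcl1 was 9619 reads in p30 UT and 12309 with LPS, and 17679 in p42 UT and 10482 with LPS. The centred log2 ratio of p42 to p30 was 0.64 in UT and -0.02 under LPS. It was the one bin of 20 that was higher by 1.5-fold in UT, a share near the 5.49% of all peak bins. The bin 15 kb downstream was lower in p42 under LPS, with a log2 ratio of -0.70, from 9563 reads in p30 LPS and 5111 in p42 LPS.

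**Figure D2:**
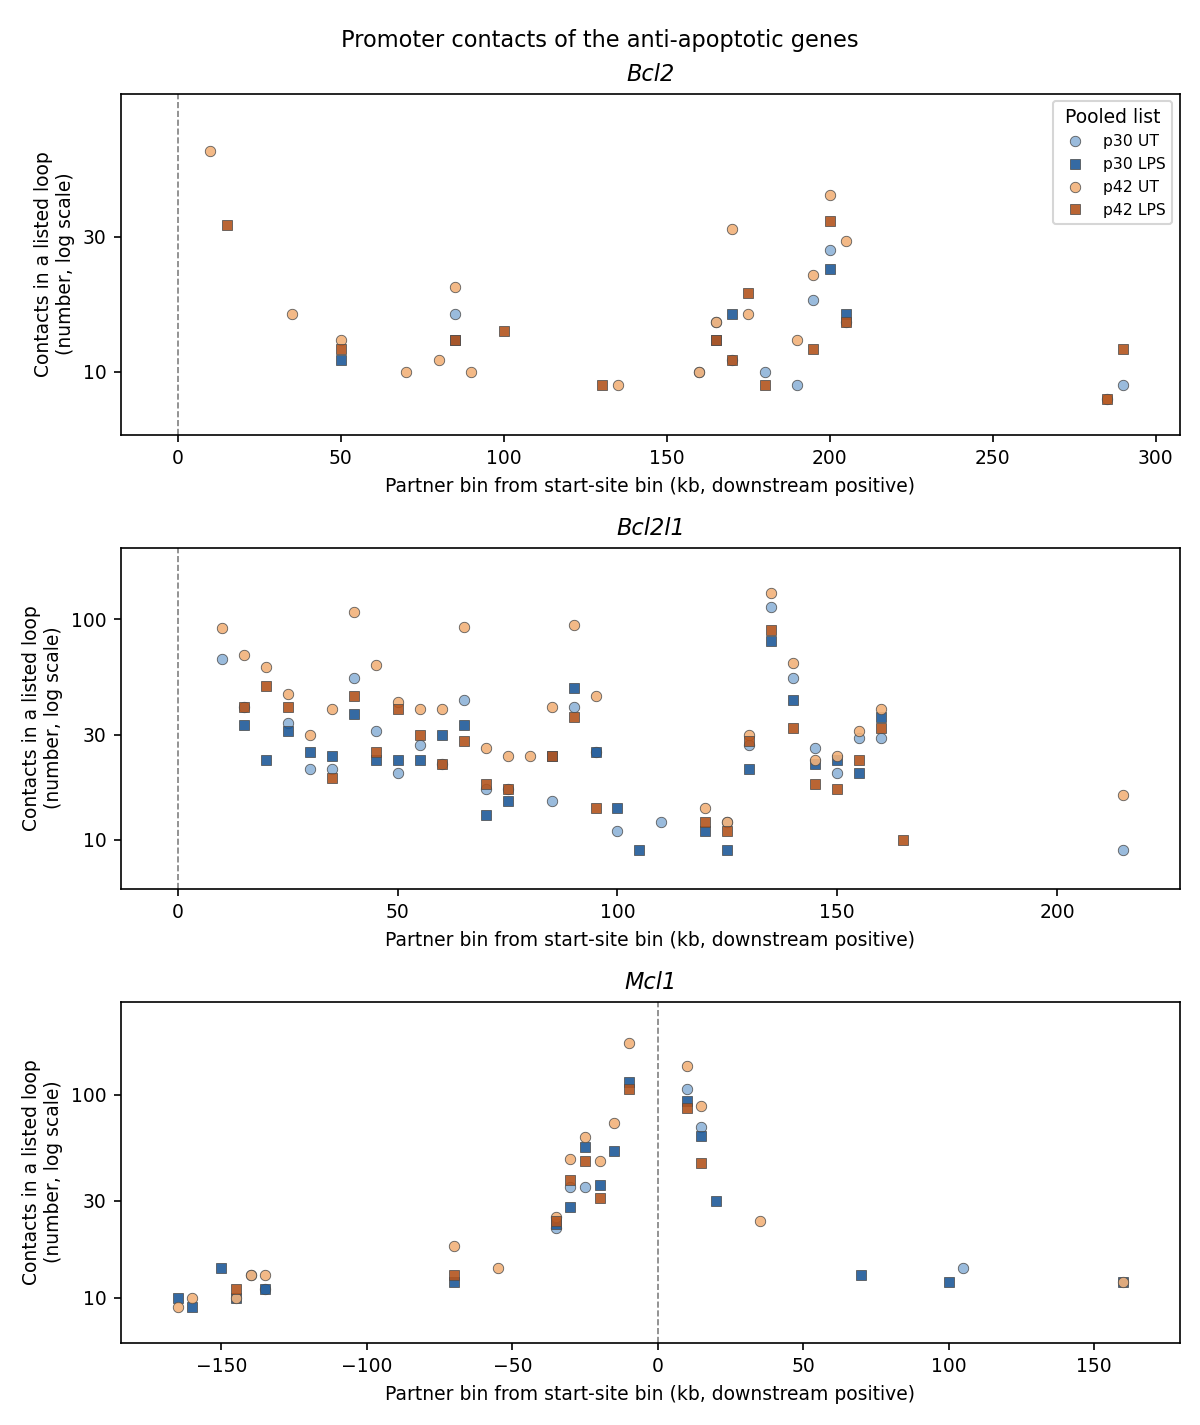
Contacts of each listed promoter loop (y axis, number, log scale) by distance of the partner bin from the start-site bin (x axis, kb, downstream positive), 1 panel per anti-apoptotic gene and 1 point per loop and list. The partners of Bcl2 and Bcl2l1 lie on the downstream side, where the loops in all 4 lists have their most contacts at 200 kb and 135 kb, and those of Mcl1 lie on both sides.

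Bcl2l11 encodes BIM, a BH3-only protein that binds all the main anti-apoptotic members. It lies on chr2:127967958-128004476, plus strand, and its start-site bin chr2:127965001-127970000 also holds the start sites of Gm74510, Gm75592 and Gm75596, whose contacts cannot be told apart from its own. All 4 partner bins lay beyond its 3′ end. One was in all 4 lists, 270 kb downstream at an exon of Morrbid, a long noncoding RNA known to repress Bcl2l11 in myeloid cells. It had 9 contacts in p30 UT and 13 with LPS, and 24 in p42 UT and 10 with LPS, or 7.60, 11.15, 20.34 and 8.59 times the expected number. The count in p42 UT was the highest, yet its share against p30 UT, 72.7%, had an interval of 55.8 to 84.9% that held the 57.5% over all loops.

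A second bin with an exon of Morrbid, 170 kb downstream, was listed in p30 LPS (8 contacts) and p42 UT (12). The bins at 215 kb and 265 kb were listed in p42 UT alone, with 8 and 12 contacts. The partner bin at 170 kb had 3325 reads in p30 UT and 4743 in p30 LPS, a centred log2 ratio of 0.64, beside 2.51% of all peak bins that were higher by 1.5-fold in this comparison. Its ratio in p42 LPS against p42 UT was 0.21. The start-site bin itself had the lowest coverage of the 7, between 951 and 1300 reads, or 0.429 to 0.46 of the median peak bin.

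Bid encodes the BH3-only protein that caspase 8 cleaves to link death receptors to mitochondria. It lies on chr6:120862525-120894171, minus strand, with its start-site bin at chr6:120890001-120895000, shared with Gm44260. Start sites of its coding transcripts fall in 3 bins, of which the canonical one was used. Of 12 partner bins, 8 lay upstream, most of them over Mical3, and 3 were in all 4 lists. Both nearest partners in all lists lay over the gene and the overlapping Bcl2l13. The loop at 10 kb downstream had 96 contacts in p30 UT and 71 with LPS, and 133 in p42 UT and 58 with LPS, and the one at 15 kb had 34, 35, 62 and 32. The third, 40 kb upstream in Mical3, had 25, 20, 32 and 13 contacts.

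In all 3 of these loops p42 UT had the most contacts and p42 LPS the fewest. Summed over them, 103 contacts were from p42 LPS and 227 from p42 UT. The share of LPS was 31.2% (95% Wilson interval 26.5 to 36.4), below the 40.8% over all tested loops, and no single loop of Bid passed the test. The loop at 10 kb came nearest, with 30.4% and an adjusted p of 0.20 in the exact binomial test, which became 0.0026 with the null share from modelled contacts. In p42 UT one loop reached the start-site bin of Bcl2l13, a related gene 80 kb downstream, with 19 contacts. Of the 12 partner bins, 6 were listed in p42 UT alone.

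Bbc3 encodes PUMA, a BH3-only protein induced by p53. It lies on chr7:16042318-16052130, plus strand, with its canonical start-site bin at chr7:16040001-16045000. Its transcripts start in 2 bins. The loop to the bin 10 kb upstream, which held no annotated exon, had more contacts than any other loop of the 7 genes, with 149 in p30 UT and 202 with LPS, and 222 in p42 UT and 228 with LPS. It was 3.24, 4.28, 3.98 and 4.51 times the expected number, and the loop at 65 kb downstream was 5.65, 4.68, 7.98 and 4.10 times. The loop at 10 kb lies at the shortest distance listed. In both isoforms it had more contacts in the LPS list than in the UT list.

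This loop passed the test in p42 LPS against p42 UT, where 50.7% of its contacts were from LPS (46.1 to 55.3) against 40.8% over all loops (exact binomial test, adjusted p = 0.010). In the same exact test the call was lost when the null share came from the modelled contacts (45.5%, adjusted p = 0.24), from the expected counts (47.5%, 0.74) or from loops in both lists compared (41.9%, 0.058). In p30, LPS held 57.5% of the contacts against 49.7% over all loops, with an adjusted p of 0.21 in the exact test, and it passed with the null share from modelled contacts (44.7%, adjusted p = 0.0003). The bin itself had 5372, 6335, 6959 and 5537 reads, fewer with LPS in p42. After centring, its log2 ratio of LPS to UT was 0.36 in p30 and 0.25 in p42.

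The other loops of Bbc3 in all 4 lists were 15 kb upstream, with 58, 60, 91 and 60 contacts, and 65 kb downstream in Sae1, which encodes a subunit of the SUMO-activating enzyme, with 17, 13, 27 and 13. Loops at 55 kb (16 contacts in p30 UT, 26 in p42 UT) and 60 kb (22 and 28) in Sae1 were in both UT lists alone. The bin at 95 kb, with the start site of Zc3h4, was listed with 13, 19 and 18 contacts in p30 UT, p30 LPS and p42 UT. Only 3 loops of Bbc3 were listed in p42 LPS, and these were the 3 that all lists shared.

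Pmaip1 encodes NOXA, a BH3-only protein that binds MCL1. It lies on chromosome 18 from 66591604 to 66598636, plus strand. Its 9 partner bins lay within 60 kb, 5 upstream and 4 beyond the 3′ end, none with the start site of a coding gene. The loop 10 kb downstream had 61 contacts in p30 UT and 69 with LPS, and 117 in p42 UT and 85 with LPS. On the upstream side the loop at 10 kb had 55, 73, 64 and 52 contacts and the one at 15 kb had 31, 43, 46 and 32. In both of these upstream loops p30 LPS and p42 UT had the most contacts, and in the downstream loop both p42 lists did. The loop 20 kb upstream, not listed in p42 LPS, had 27 contacts in p30 UT, 23 in p30 LPS and 36 in p42 UT. None of the 3 loops in all 4 lists passed the test, and that 10 kb downstream passed in p42 UT against p30 UT with the null share from modelled contacts (exact binomial test, adjusted p = 0.0031, in place of 0.30). Of the partners, 4 were listed in p30 LPS alone.

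Coverage of the bin 10 kb downstream of Pmaip1 was 6443 reads in p30 UT and 8662 with LPS, and 11870 in p42 UT and 7102 with LPS. The next bin had 8066, 10511, 14986 and 8957. Their centred log2 ratios in p42 UT against p30 UT were 0.64 and 0.65, the only ones of 9 past 1.5-fold, beside 5.49% of all peak bins. They are neighbours and not independent. In p30 LPS against p30 UT they were 0.55 and 0.51.

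**Figure D3:**
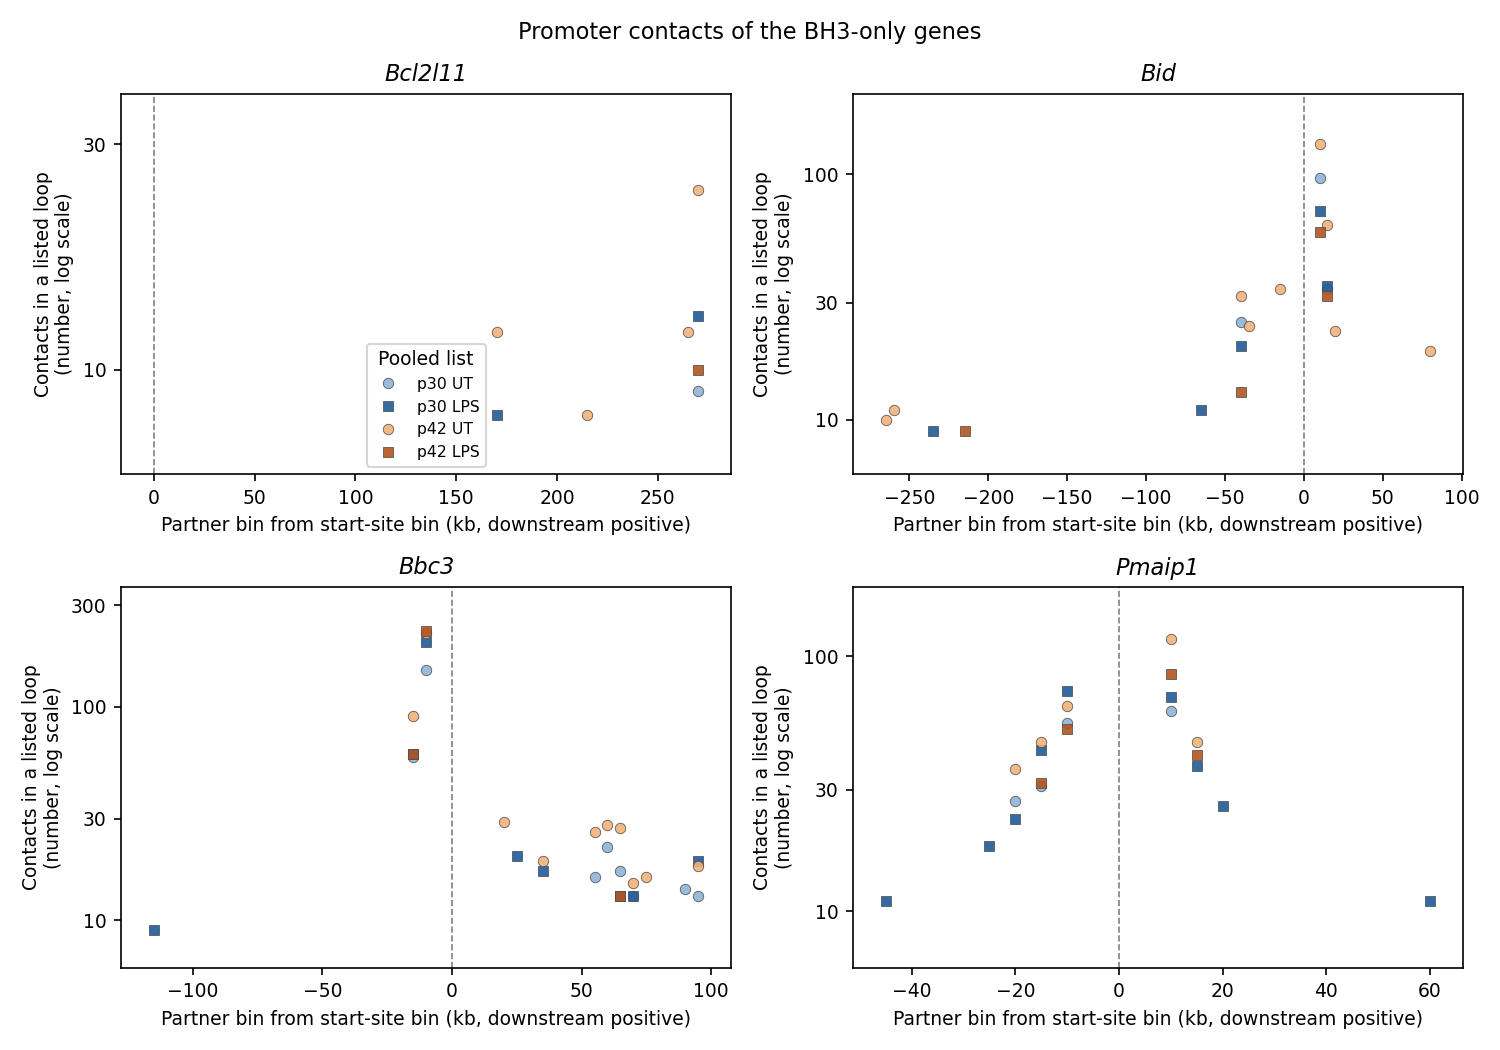
Contacts of each listed promoter loop (y axis, number, log scale) by distance of the partner bin from the start-site bin (x axis, kb, downstream positive), 1 panel per BH3-only gene and 1 point per loop and list. Bcl2l11 has no partner nearer than 170 kb, and Bbc3 has its most contacts, 149 to 228, at 10 kb upstream, the shortest distance listed.

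Contacts were compared over the 42 promoter loops of the 7 genes that were in all 4 lists, within a test of all 31032 such loops. In p42 UT against p30 UT none was called, beside 1.55% of all loops called higher and 0.815% lower. In this comparison 6 of 42 had an unadjusted p under 0.05, beside 13.0% of all loops, and all 6 were higher in p42. They were the loops of Bcl2l1 at 90, 85, 65 and 40 kb, of Bcl2 at 170 kb and of Pmaip1 at 10 kb downstream. Bcl2l1 held 22 of the 42 loops, and loops of 1 gene share its start-site bin, so that they are not independent. Under LPS none was called (0.512% higher and 0.519% lower of all loops), with 1 of 42 under 0.05 beside 8.89%. In p30 LPS against p30 UT none was called (0.371% and 0.132%), with 3 of 42 under 0.05 beside 7.83%. In p42 LPS against p42 UT the loop of Bbc3 was called higher and that of Bcl2l1 lower, beside 0.242% and 0.342% of all loops, and 8 of 42 were under 0.05 beside 8.34%. Among these 8 were the loops of Bcl2l1 at 95, 90, 65, 45 and 40 kb, which share 1 start-site bin. With the null share from modelled contacts, 8 loops were higher in p42 UT against p30 UT, beside 3308 higher and 39 lower of all 31032 loops. They were the 6 named above and the loops of Bcl2l1 at 45 kb and Bbc3 at 10 kb upstream. Their adjusted p was 0.00051 to 0.037 in the exact test. In p30 LPS against p30 UT the loop of Bbc3 at 10 kb was higher, beside 1207 of all loops higher and 12 lower. In p42 LPS against p42 UT 6 were lower, beside 1111 of all loops lower and 27 higher. They were those of Bcl2l1 at 95, 90, 65, 45 and 40 kb and of Bid at 10 kb, with adjusted p of 0.00021 to 0.048 in the exact test.

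When summed per gene, most shares lay near those of all loops. Bcl2l1 had 60.9% of its contacts in p42 UT against p30 UT (95% Wilson interval 58.7 to 63.2, where all loops had 57.5%) and 36.6% in p42 LPS against p42 UT (34.4 to 38.9, where all loops had 40.8%). Bbc3 had 47.0% in p42 LPS against p42 UT (43.1 to 50.8) and 55.1% in p30 LPS against p30 UT (50.7 to 59.4, where all loops had 49.7%). These sums of Bbc3 rest on the loop at 10 kb upstream, since its loops at 15 and 65 kb had 39.7% and 32.5% in p42 and 50.8% and 43.3% in p30. Pmaip1 had 55.7% in p30 LPS against p30 UT (50.3 to 61.0). The intervals of Bcl2, Mcl1 and Bcl2l11 held the share of all loops in all 4 comparisons. The picture differed with the expected counts of the caller as reference, which allow for distance and coverage. In p42 UT against p30 UT the intervals of 5 genes then lay above their reference, which was 52.7% for Bcl2, 54.5% for Bcl2l1, 49.9% for Bcl2l11, 52.9% for Bid and 54.9% for Bbc3. The share over all loops, 57.5%, was itself above these 5 references. In p42 LPS against p42 UT the intervals of 5 genes lay below their reference. It was 49.0% for Bcl2, 44.4% for Bcl2l1, 45.0% for Mcl1, 49.7% for Bcl2l11 and 40.8% for Bid, while Bbc3 (47.1%) and Pmaip1 (44.4%) held theirs. The share over all loops, 40.8%, was itself below the references of Bcl2, Bcl2l1, Mcl1 and Bcl2l11 and equal to that of Bid. In p42 LPS against p30 LPS the interval of Bcl2l1 lay below 53.9%, where all loops had 48.6%. In p30 LPS against p30 UT that of Bbc3 lay above 50.5%, and all others held their reference. The intervals cover counting error only.

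**Figure D4:**
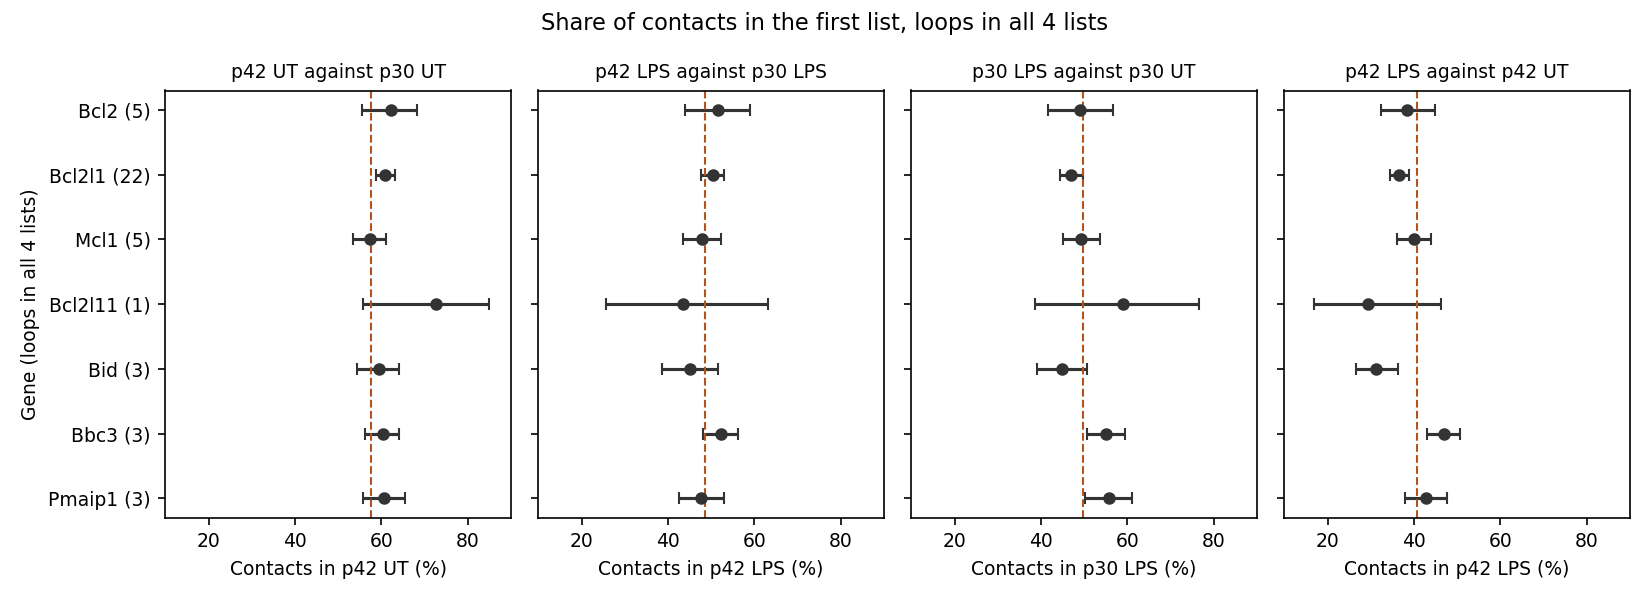
Share of the contacts that came from the first list named (x axis, percent) for each gene (y axis, with the number of loops in all 4 lists), 1 panel per comparison, with 95% Wilson intervals and the share over all tested loops as a dashed line. The interval of Bid in p42 LPS against p42 UT, 26.5 to 36.4%, lies below the line at 40.8% and that of Bbc3, 43.1 to 50.8%, above it.

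Coverage of the start-site bins counts the HiChIP reads at the promoters themselves. All 7 were peak bins in every list. With p30 (UT, LPS) before p42 (UT, LPS), reads were 6320, 7113, 9919 and 6223 for Mcl1 and 6073, 6996, 8613 and 5917 for Bbc3, the highest of the 7 together with Bid at 6011, 5143, 8075 and 4059. Bcl2l1 had 4587, 4224, 7132 and 3998 reads, Bcl2 had 2914, 3197, 4660 and 3592, and Pmaip1 had 2388, 3074, 3880 and 2754. Against the median peak bin of each list, Mcl1 was 2.34 to 3.35 times as high and Bcl2l11 0.429 to 0.46 times.

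No start-site bin passed 1.5-fold after centring in any comparison. In p42 UT against p30 UT this was so of all but 4.61% (higher) and 0.994% (lower) of the peak bins with a coding start site. These shares were 1.75% and 3.79% in p42 LPS against p30 LPS, 2.34% and 0.241% in p30 LPS against p30 UT, and 0.684% and 1.21% in p42 LPS against p42 UT. Pmaip1 came nearest upward, at 1.40-fold in p30 LPS against p30 UT, above 95.7% of such bins. Bid came nearest downward, at 0.752-fold in p42 LPS against p42 UT, above 6.94% of them. In p42 UT against p30 UT, Pmaip1 (1.37-fold), Bcl2 (1.35), Mcl1 (1.33) and Bcl2l1 (1.32) lay together near the upper end and Bcl2l11 (0.883) toward the lower. Bcl2 was also higher in p42 with LPS, at 1.30-fold, above 95.3% of the bins.

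**Figure D5:**
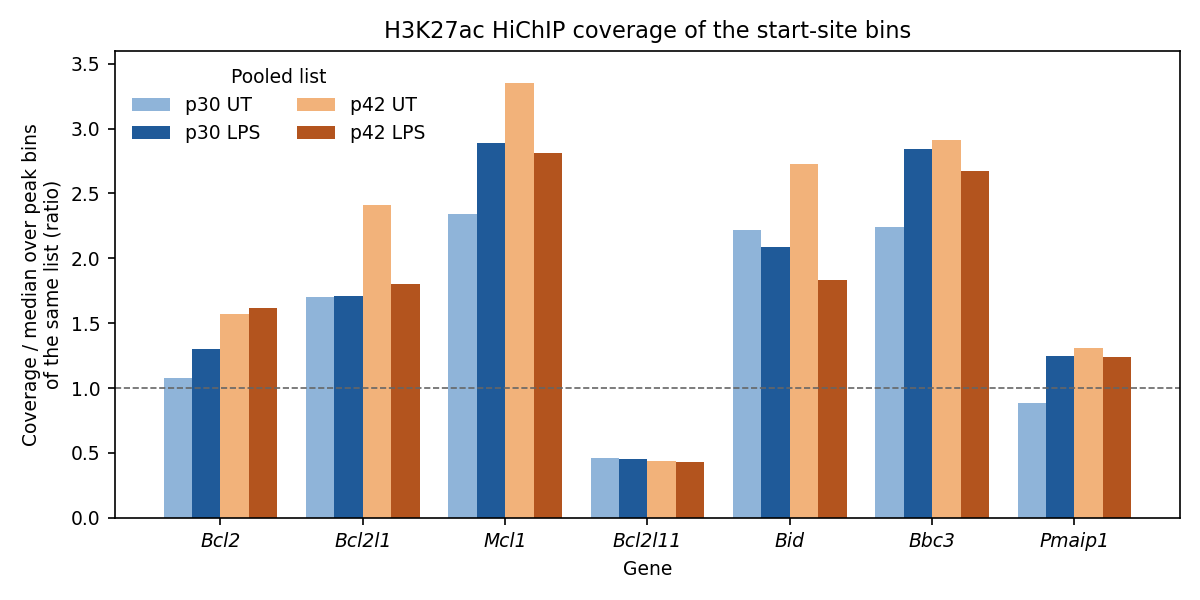
Coverage of the start-site bin divided by the median over all peak bins of the same list (y axis, ratio) for each gene (x axis), 1 bar per pooled list, with the dashed line at 1. Mcl1 reaches 3.35 in p42 UT, and Bcl2l11 lies between 0.429 and 0.46.

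Of the 114 partner bins of the 7 genes, 57 lay beyond the 3′ end, 27 over the gene and 30 upstream. In all 4 lists were 42 (36.8%), where 18.2% of the promoter loops over all start-site bins were, and Bcl2l1 alone held 22 of the 42. Without it, the share per gene was 22.7% for Bcl2 and for Mcl1, 25.0% for Bcl2l11 and Bid, 23.1% for Bbc3 and 33.3% for Pmaip1. In 1 list alone were 40 of the 114, beside 34968 of the 76123 promoter loops over all start-site bins. Among the 40 were 19 in p42 UT, the longest list, 13 in p30 LPS, 5 in p42 LPS and 3 in p30 UT. In both p42 lists alone were 2, in both p30 lists alone 1, in both UT lists alone 7 and in both LPS lists alone none. These splits by list, and those per gene above, were not counted over all start-site bins. A coding start site lay in 11 partner bins, and 101 had a peak in a list. Over all partner bins with a peak in both lists, 9 of 92 were higher in p42 UT than in p30 UT by 1.5-fold and 1 was lower, a bin 65 kb upstream of Bid, beside 5.49% and 2.65% of all peak bins. Partner bins entered through a listed loop of a member, and p42 UT was the longest list, so they were not selected as all peak bins were. Of the higher bins, that 35 kb downstream of Bcl2 was listed in p42 UT alone. Those 10 kb upstream of Mcl1 and 15 kb downstream of Pmaip1 were not listed in p30 UT. The lower bin of Bid was listed in p30 LPS alone. Under LPS 2 of 89 were higher and 1 was lower, beside 3.87% and 2.88% of all peak bins. After LPS, 1 of 86 was higher and none lower in p30, beside 2.51% and 0.674%, and none of 95 passed in p42, beside 1.52% and 1.21% of all peak bins.

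The distances and strengths of the loops set the genes apart. The median distance of promoter loops was 160 to 185 kb for Bcl2 in the 4 lists and 220 to 270 kb for Bcl2l11, where the median over all promoter loops was 45 to 50 kb. It was 77.5 to 85 kb for Bcl2l1, 25 to 52.5 kb for Mcl1 and 12.5 to 20 kb for Pmaip1. The median ratio of contacts to expected contacts was 6.80 to 9.61 for Bcl2l1, 6.14 to 10.11 for Bcl2 and 7.60 to 9.32 for Bcl2l11, above the 4.61 to 4.72 over all promoter loops. It was 2.07 to 2.74 for Pmaip1 and 2.67 to 4.76 for Bid. The expected number falls with distance, so that distance and this ratio cannot be told apart here.

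Other genes of the pathway were described by their loop numbers. Of 37 genes, 28 had a promoter loop in a list and 19 in all 4. With p30 (UT, LPS) before p42 (UT, LPS), the effector Bax had 7, 4, 12 and 5 loops, Bak1 had 19, 16, 26 and 9, and Bok had none. Of the other anti-apoptotic genes, Bcl2l2 had 0, 1, 2 and 1, and Bcl2a1a, Bcl2a1b, Bcl2a1d and Bcl2l10 had none. Of 4 other BH3-only genes, 3 had a loop in a list, with Bad, whose bin also holds Gpr137, at 4, 4, 12 and 3 and Bmf at 2, 3, 4 and 3, and of 4 inhibitors of apoptosis all had one, with Birc2 at 7, 9, 12 and 8. Of 11 genes of the apoptosome and the caspases 9 had one, with Cflar, the inhibitor of caspase 8, at 6, 13, 25 and 9. Of 5 related genes, among them Bcl2l13, all had one, and of 5 upstream regulators 4 did.

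Over the 28 genes with a promoter loop in a list, 25 had more loops and 3 fewer in p42 UT than in p30 UT, and 4 more and 13 fewer in p42 LPS than in p30 LPS. Among all genes with a promoter loop in either list of a comparison these shares were 81.9% and 8.25%, and 23.6% and 58.7%. In lists of equal size the counts were 10 and 9, and 5 and 7, beside 41.8% and 37.7%, and 33.7% and 46.7% of all genes. With LPS, 10 had more and 12 fewer in p30 in the lists as deposited, beside 53.1% and 27.6% of all genes, and 0 more and 26 fewer in p42, beside 4.51% and 87.3%. In lists of equal size 7 had more and 14 fewer in p30 and 4 more and 13 fewer in p42, beside 42.3% and 36.8%, and 31.8% and 46.4%. At equal size, Bak1, Ddit3 and Trp53 had the largest deficit in p42 of the same sign under both treatments, while in the lists as deposited all 3 had more loops in p42 UT than in p30 UT. Bak1 had 19 loops in p30 UT and 17 in p42 UT, and 15 in p30 LPS and 9 in p42 LPS. Trp53, which shares its bin with Wrap53, had 14 and 13, and 15 and 9, and Ddit3 (CHOP) had 13 and 12, and 12 and 6. As deposited, Trp53 had 14, 17, 19 and 9 loops and Ddit3 13, 12, 16 and 6. Apaf1, the scaffold of the apoptosome, which shares its bin with Ikbip, was the only gene of these with more in p42 under both, at 4 and 5 loops in each treatment.

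For the 3 genes with at least 5 loops in every list, the genes with the most similar loop numbers were found by the Euclidean distance of log2(loops + 1) over the 4 lists. Nearest to Bcl2 were Nek9 (10, 6, 16 and 11 loops, distance 0.33), Grina and Rtkn. Nearest to Bcl2l1 were Cdkn1a, the cell cycle inhibitor p21 (27, 28, 29 and 22 loops, distance 0.19), Nfkbil1 and Ier3. Nearest to Mcl1 were Setd2, a histone methyltransferase (9, 17, 16 and 8 loops, distance 0.24), Aff4 and Usf1. Over 4 lists such a likeness is a description of numbers alone.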

How the data were processed

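H3K27ac HiChIP was made with an MNase kit from HPC-7 cells, with 2 libraries in each of 4 groups. Per the study's methods, reads were mapped to mm39 (the assembly GRCm39) with BWA-MEM 0.7.17, as the submitters' processing notes also name, ligation products were recorded and duplicates removed with pairtools, and loops were called with FitHiChIP. Per the names of the deposited lists, bins were of 5 kb and the q-value was under 0.01. How replicates were pooled is not given in the sources used here. The 4 deposited lists hold, per loop, the contact count (whole ligation products, not normalized), the coverage of both bins as a count of reads, a peak flag and the distance. The expected contacts deposited by the authors are a signal that their caller models from distance and coverage, the deposited contact probability is a fraction, and the deposited q-value was adjusted by the authors' caller. The caller lists significant pairs alone and corrects for coverage, which can hide a difference that goes with H3K27ac, and coverage reads every ligation product near a bin, not H3K27ac alone.

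The lists were read with Python 3.11.15, pandas 2.3.3 and scipy 1.17.1, and start sites came from GENCODE. Modelled contacts were the expected count divided by the probability. For each of the 31032 loops in all 4 lists, contacts were set against a null share (exact binomial, two-sided), with p-values adjusted after Benjamini and Hochberg over all of them at 0.05. The null share was that of the first list in the contacts summed over those loops. The test was checked on simulated contacts that held counting error alone, so the check does not cover spread between libraries. Coverage ratios were centred on the median over bins with a peak in both lists and called past 1.5-fold. Named were all 7 genes, up to 5 of their loops in all 4 lists with the most contacts, loops past the test, up to 3 loops in both lists of 1 isoform or 1 treatment alone, coding genes that start in such bins, pathway genes with the largest differences of 1 sign under both treatments, and the 3 genes most like a member with at least 5 loops in every list. The genes, lists and rules were chosen with earlier results of these data known. One marker gene is not reported here.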

Additional observations from a re-analysis of the deposited data

Results flagged for a closer look

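The number of promoter loops of Mcl1 moved in opposite directions with LPS in the 2 isoforms, by 10 more in p30 (8 to 18) and 8 fewer in p42 (17 to 9), a difference of the log2 changes of 1.93 on the scale of loops + 1. In lists of equal size the changes were 9 and -1. For Bid they were 2 more (3 to 5) and 5 fewer (9 to 4), a difference of 1.58, and 2 and 0 at equal size. These differences between the isoforms were not tested, since each group has 1 pooled list. Of all genes with a promoter loop, 40.1% had more loops with LPS in p30 and fewer in p42, and 16.7% did at equal size.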

How the results depend on the processing

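No paired analysis was possible because the lists pool both replicates of a group, and leaving out a replicate was not possible for the same reason. In lists of equal size, members with more loops were 3 and with fewer 2 in p42 UT against p30 UT, more 2 in p42 LPS against p30 LPS, fewer 3 in p30 LPS against p30 UT, and more 1 and fewer 4 in p42 LPS against p42 UT. There the difference of Bcl2 between p42 UT and p30 UT turned from 7 to -2 loops, which goes with the length of the lists, and that of Bcl2 between p42 LPS and p42 UT from -3 to 6. Members with fewer loops in p30 LPS than in p30 UT were 2 at a q-value under 1e-05, 3 at 10 contacts or more and 2 with the neighbouring bins added to the start-site bin, where the difference of Bcl2l11 turned from 1 to -1. With the null share from modelled contacts, member loops higher in contacts were 8 in p42 UT against p30 UT, 1 in p30 LPS against p30 UT and 0 in p42 LPS against p42 UT, and lower in the last 6. Of all 31032 loops, 3308, 1207 and 27 were higher in these comparisons and 1111 were lower in the last. With expected counts, 2 were higher in p42 UT against p30 UT, beside 435 of all loops. In p42 LPS against p42 UT 0 were higher and 2 lower, beside 0 and 85 of all loops. The loop of Bbc3 was not called (0 higher) over loops in both lists compared, and it is left out at 20 kb or more by construction (0 higher). Coverage centred by modelled contacts put 2 start-site bins higher in p42 UT against p30 UT, 1 higher in p30 LPS against p30 UT and 1 lower in p42 LPS against p42 UT. With 1 bin of slack, 65 partner bins were in all 4 lists in place of 42. The causes of the other shifts were not tested. Of the comparisons' results under all alternatives, 108 stayed within 1.5 times and 22 did not, and of single values 278 stayed and 114 did not. Loops of few contacts, such as that of Bcl2l11 at 270 kb with 9 to 24, resolve large differences only.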
